A study of Mus musculus with 8 samples.

Results

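The kinesin genes were taken as every row of the count table whose symbol begins with Kif or Kifc followed by a digit, which gave 42 of 23284 rows, of which 1, Kif4-ps, is a pseudogene. The RNA came from LSK cells of mouse bone marrow (negative for lineage markers, positive for Sca-1 and c-Kit), 2000 sorted cells in each library. All mice were Hdc-GFP animals on a C57BL/6 background, in which fluorescence reports the gene of histidine decarboxylase, and the fractions compared were reporter-high cells (Hdc-GFPhi, 4 libraries) and reporter-low cells (Hdc-GFPlo, 4 libraries). The sources used here give no age, no further treatment and no statement that replicates came from separate animals, so p-values measure the spread between these libraries, which may in part be technical. The question was how kinesin transcripts, and Kif21a against the kinesins of cell division in particular, differed with reporter activity.

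Kinesins are motor proteins that use ATP to move along microtubules or to change how microtubules grow and shrink. Some carry vesicles, organelles and cilium parts, while others build the spindle, move chromosomes and complete cytokinesis, and the genes of the dividing-cell group are switched on mainly in G2 and mitosis. Stem cells of adult bone marrow divide rarely, whereas the progenitors that share the LSK gate with them divide often.

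Hdc-GFPhi libraries held 21041170 to 22470121 counts and Hdc-GFPlo libraries 16726179 to 23051277. Of the 42 kinesin rows, 34 had enough counts to be tested, 5 had no count in any library and 3 had few. Kit, which encodes c-Kit, averaged 1460 CPM (counts scaled to a common library size and corrected for composition) across Hdc-GFPhi and 1195 CPM in Hdc-GFPlo libraries, and Ly6a, which encodes Sca-1, averaged 125 CPM across Hdc-GFPhi and 119 CPM across Hdc-GFPlo libraries. Counts of the globin genes Hba-a1, Hba-a2 and Hbb-b2 were 0 throughout, while 9 neutrophil lineage genes summed to 1972 to 2557 CPM in Hdc-GFPhi libraries and 2370 to 3130 CPM in Hdc-GFPlo libraries. Fewer cells of a type and less RNA per cell cannot be told apart in such bulk samples.

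Kif21a was higher in Hdc-GFPhi cells, and no other kinesin passed the test. Kif21a is a kinesin-4 motor that slows microtubule growth at the cell cortex. It had 6.91, 7.37, 7.30 and 6.597 CPM in the Hdc-GFPhi libraries, against 3.10, 2.14, 2.21 and 2.84 CPM in the Hdc-GFPlo libraries. Every Hdc-GFPhi library lay above every Hdc-GFPlo library, and the highest Hdc-GFPlo value was less than the lowest Hdc-GFPhi value by more than the spread of either group. Mean levels were 7.04 ± 0.361 CPM across Hdc-GFPhi libraries and 2.57 ± 0.470 CPM across Hdc-GFPlo libraries (SD, n = 4 each). Kif21a rose 2.73-fold (log2 fold change 1.45 ± 0.23 SE, 95% interval 0.95 to 1.94, adjusted p = 0.0086 by edgeR's quasi-likelihood test with Benjamini-Hochberg adjustment over 13300 genes). Of all genes tested, 0.947% were called, 0.241% higher and 0.707% lower in Hdc-GFPhi, and 1 called member of 34 is too small a count to set the family apart from that share. Raw counts of Kif21a were 148 to 164 in Hdc-GFPhi libraries and 36 to 70 in Hdc-GFPlo libraries. The variation coefficient within Hdc-GFPhi was 5.13% and within Hdc-GFPlo 18.3%. Against counting error, chi-square was 1.23 within Hdc-GFPhi and 4.95 within Hdc-GFPlo, each on 3 degrees of freedom. Neither spread is thus shown to exceed counting error. The gene was named in the selection with earlier results of these data known, and its size of change is given as a description of these libraries.

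**Figure D1:**
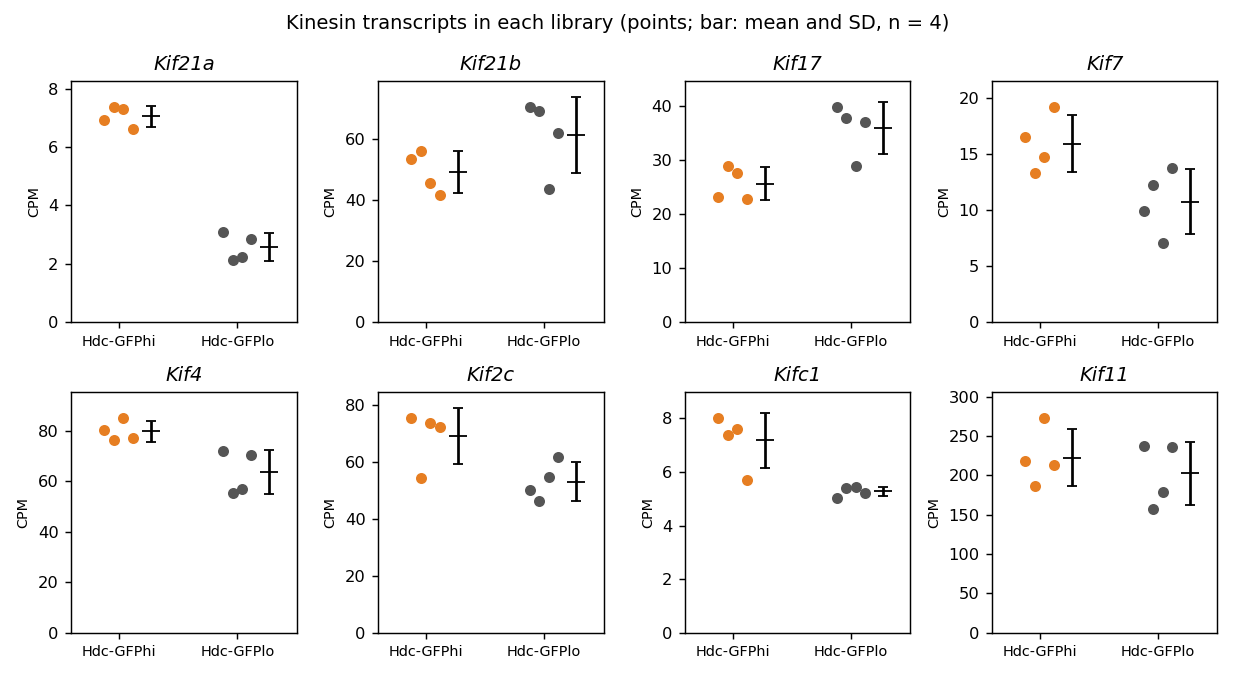
CPM (vertical axes, from 0) of 8 kinesin transcripts in the 4 Hdc-GFPhi libraries (left, orange) and the 4 Hdc-GFPlo libraries (right, grey), with the mean and SD beside each group. Kif21a lies at 6.597 to 7.37 CPM in Hdc-GFPhi libraries and 2.14 to 3.10 CPM in Hdc-GFPlo libraries, while the groups meet or nearly meet in the other panels.

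Of 14 stem cell genes (Procr, Mecom, Hlf and others), 3 were called higher, Cdkn1c and Esam among them, and 11 did not pass, where 0.241% of all genes tested were called higher. All 14 had a log2 fold change above 0, as did 49.9% of all genes tested. Signs of genes measured in the same libraries are not separate observations. The list summed to 1992 to 2326 CPM in Hdc-GFPhi libraries and 1264 to 1541 CPM in Hdc-GFPlo libraries. Of 10 megakaryocyte genes, 9 were tested and none was called, with sums of 153 to 176 CPM in Hdc-GFPhi libraries and 92.0 to 128 CPM in Hdc-GFPlo libraries and Gp6 at 0. Of 10 B cell genes, 5 were called lower, where 0.707% of all genes tested were called lower. The list summed to 99.0 to 189 CPM in Hdc-GFPhi libraries and 302 to 586 CPM in Hdc-GFPlo libraries. The part of these cell types in the Kif21a result was not tested.

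The nearest relative of Kif21a in the family was not called, and its log2 fold change had the opposite sign. Kif21b, also a kinesin-4 that limits microtubule growth and is known from neurons and T cells, had 53.2, 56.1, 45.4 and 41.5 CPM in Hdc-GFPhi libraries and 70.3, 69.1, 43.5 and 61.7 CPM in Hdc-GFPlo libraries. Hdc-GFPlo replicate 3 lay inside the Hdc-GFPhi range and the other Hdc-GFPlo libraries above it. Its log2 fold change of -0.32 had an interval (95%) from -0.67 to 0.03 (adjusted p = 0.523, edgeR). There were 12.99, 13.1, 16.1 and 15.9 Kif21a reads per 100 Kif21b reads in the Hdc-GFPhi libraries, against 4.40, 3.10, 5.09 and 4.60 in the Hdc-GFPlo libraries. This ratio needs no scaling between libraries, and it separated every Hdc-GFPhi from every Hdc-GFPlo library. It uses the same Kif21a counts, and Kif21b leaned the other way, so the ratio is not separate support. Per kb of exon, Kif21b stayed the more abundant of the pair, with levels of 4.02 CPM per kb for Kif21b and 1.09 for Kif21a in Hdc-GFPhi, and 5.02 and 0.397 in Hdc-GFPlo.

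No partner of the kinesins was called, where 0.947% of all genes tested were called. Kank1, the cortical scaffold that binds Kif21a, had 4, 3, 13 and 0 counts in Hdc-GFPhi libraries and 0, 3, 0 and 0 in Hdc-GFPlo libraries, too few to be tested. Its relative Kank2 averaged 12.3 ± 0.580 CPM in Hdc-GFPhi libraries and 10.9 ± 3.31 CPM in Hdc-GFPlo libraries (adjusted p = 0.849, edgeR). Of 24 listed partners and regulators of kinesins, 23 were in the table, 20 were tested and none passed, with a median log2 fold change of 0.10. Arl8b, a lysosomal GTPase that recruits kinesin, had 214, 230, 272 and 219 CPM in Hdc-GFPhi libraries and 301, 288, 306 and 306 CPM in Hdc-GFPlo libraries. The groups did not overlap, a separation seen for 6.92% of all genes tested (3.38% higher and 3.54% lower in Hdc-GFPhi), and the log2 fold change of -0.36 ± 0.10 missed the threshold (adjusted p = 0.13, edgeR). DESeq2 (adjusted p = 0.023) and limma voom (0.0479) called it lower. Klc1, a light chain of conventional kinesin, averaged 63.2 ± 7.38 CPM in Hdc-GFPhi libraries and 52.5 ± 6.47 CPM in Hdc-GFPlo libraries (adjusted p = 0.488, edgeR).

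The mitotic kinesins stood slightly above 0 as a class, without a single call, where 0.947% of all genes tested were called. Of 13 mitotic members, all were tested, 12 had a log2 fold change above 0 and 1 below, where 49.9% of all genes tested lay above 0. The class was an assigned list, and these counts depend on it. Its members were measured in the same libraries and moved together in some of them, so their signs are not separate observations. It left out Kif2a, a depolymerase of spindle poles (log2 fold change -0.21), and Kif2b, which had no count. It also left out Cenpe (log2 fold change -0.05), whose symbol lies outside the naming rule. The median was 0.18, beside 0.00 for all genes tested, and the range was -0.01 to 0.44. At an unadjusted p below 0.05 there were 3 of 13, all higher, where 10.9% of all genes passed (5.33% higher and 5.56% lower). Over all 34 tested members, 5 passed higher and 1 lower at that unadjusted level, and 22 lay above 0 with a median of 0.10. The groups of 3 of the 34 tested members did not overlap, namely Kif21a, Kif4 and Kifc1, all higher in Hdc-GFPhi. Over all genes tested, the groups did not overlap for 6.92% (3.38% higher). A count of 3 is too small to set the family apart from these shares. The 95% interval of each of the 13 mitotic members excluded a 2-fold change in either direction. So did the intervals of 29 of the 34 tested kinesins and of 10710 of all 13300 genes tested, so this is not particular to the class. Their highest upper bound was 0.87, below the lower bound of 0.95 for Kif21a. Of the 33 other tested members 31 had an upper bound below 0.95, the exceptions being Kif6 and Kif7.

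**Figure D2:**
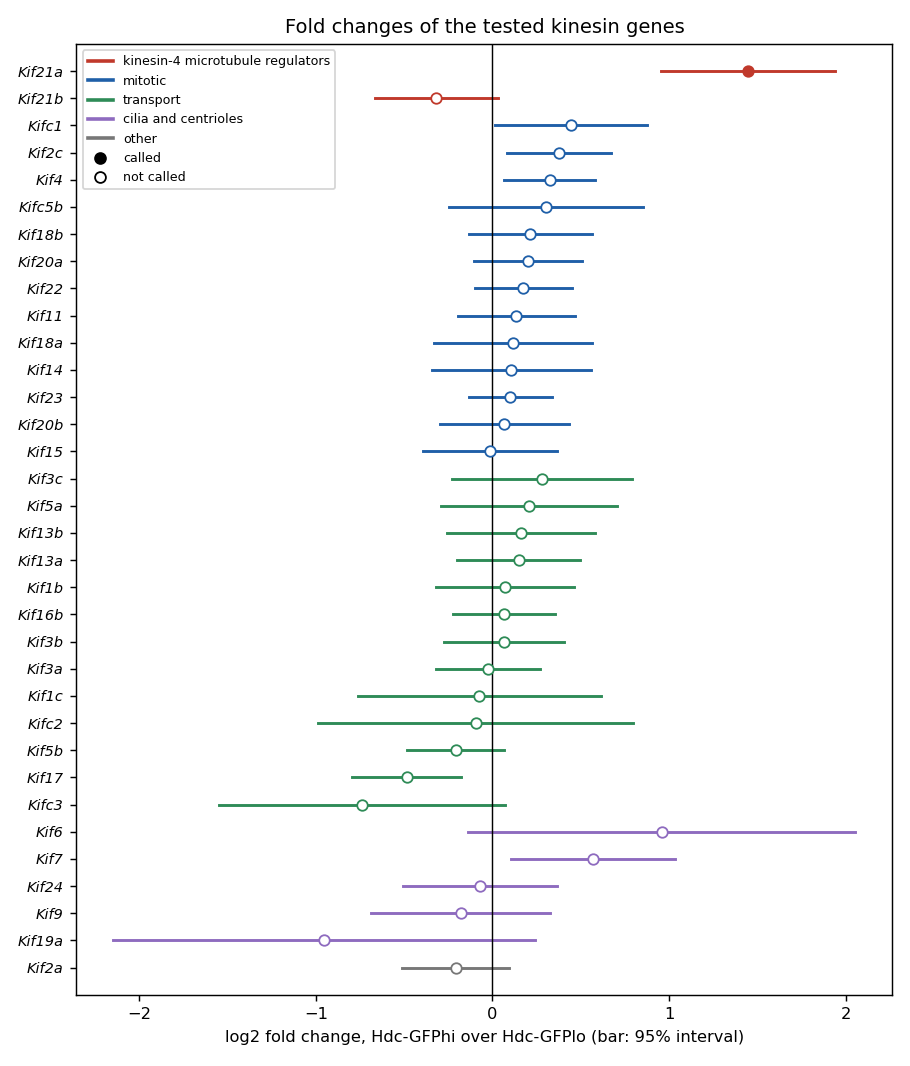
Log2 fold change of Hdc-GFPhi over Hdc-GFPlo (horizontal axis) with 95% intervals for the 34 tested kinesin genes, coloured by class, with filled points for called genes. Kif21a is the single filled point, at 1.45, and the 13 mitotic members lie between -0.01 and 0.44.

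Among motors that act on chromosomes, the midzone and microtubule ends, Kif2c and Kif4 had the smallest p. Kif2c, a depolymerase that corrects faulty kinetochore attachments, had 75.7, 54.5, 73.8 and 72.5 CPM in Hdc-GFPhi libraries, against 50.1, 46.2, 54.7 and 61.9 CPM in Hdc-GFPlo libraries. Hdc-GFPhi replicate 2 lay inside the Hdc-GFPlo range and the other Hdc-GFPhi libraries above it (log2 fold change 0.38 ± 0.14, adjusted p = 0.296, edgeR). Kif4, which works with Prc1 at the anaphase midzone, had 80.4, 76.0, 85.1 and 77.1 CPM in Hdc-GFPhi libraries, against 72.0, 55.2, 57.05 and 70.1 CPM in Hdc-GFPlo libraries. The groups did not overlap, and the log2 fold change was 0.32 ± 0.12 (adjusted p = 0.299). Kif22, which pushes chromosome arms from the poles, had 136, 126, 156 and 127 CPM in Hdc-GFPhi libraries and 136, 93.9, 124 and 130 CPM in Hdc-GFPlo libraries, with overlapping groups. Kif18a, which dampens chromosome movements, had 29.6, 31.5, 55.1 and 51.4 CPM in Hdc-GFPhi libraries and 34.7, 39.9, 47.1 and 32.8 CPM in Hdc-GFPlo libraries. In Hdc-GFPhi, replicates 1 and 2 lay below every Hdc-GFPlo library and replicates 3 and 4 above every one. Kif18b, which limits astral microtubules, had 64.6, 53.2, 82.8 and 68.2 CPM in Hdc-GFPhi libraries and 63.3, 49.6, 48.4 and 70.5 CPM in Hdc-GFPlo libraries, again overlapping.

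Among motors of spindle poles and spindle bipolarity, the groups of Kifc1 did not overlap and those of the others did. Kifc1, the minus-end motor that focuses spindle poles, had 8.03, 7.37, 7.61 and 5.71 CPM in Hdc-GFPhi libraries, against 5.04, 5.41, 5.43 and 5.22 CPM in Hdc-GFPlo libraries. Hdc-GFPhi replicate 4 came close to the Hdc-GFPlo values (log2 fold change 0.44 ± 0.20, adjusted p = 0.432, edgeR). Kifc5b, a closely related mouse copy, had 3.83, 3.41, 4.14 and 3.88 CPM in Hdc-GFPhi libraries and 3.05, 2.55, 2.88 and 3.85 CPM in Hdc-GFPlo libraries. The sources used here do not say how reads shared by Kifc1 and Kifc5b were counted, and both values are uncertain. Kif11, which slides spindle microtubules apart, had 218, 186, 274 and 213 CPM in Hdc-GFPhi libraries and 237, 158, 179 and 236 CPM in Hdc-GFPlo libraries, with broad overlap (log2 fold change 0.14, 95% interval -0.19 to 0.47). Kif15, which helps keep the spindle bipolar, had 53.7, 50.3, 73.8 and 80.8 CPM in Hdc-GFPhi libraries and 70.9, 49.4, 65.6 and 75.0 CPM in Hdc-GFPlo libraries. It was the 1 mitotic member below 0, at -0.01, and its sign changed with no composition factor (0.01) and in 5 of 8 fits with 1 library left out.

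Motors of cytokinesis overlapped between the fractions. Kif20a, which carries the chromosome passenger complex to the midzone, had 141, 115, 153 and 122 CPM in Hdc-GFPhi libraries and 125, 97.0, 98.6 and 141 CPM in Hdc-GFPlo libraries. Kif23, the motor subunit of centralspindlin, had 123, 134, 136 and 145 CPM in Hdc-GFPhi libraries and 121, 107, 131 and 142 CPM in Hdc-GFPlo libraries. The ranges of the 2 fractions overlapped for both genes. Kif20b, a motor of late cytokinesis, had 73.0, 78.2, 113 and 110 CPM in Hdc-GFPhi libraries and 84.4, 71.3, 108 and 93.2 CPM in Hdc-GFPlo libraries. Kif14, which works with citron kinase at the midbody, had 11.4, 13.6, 16.5 and 10.1 CPM in Hdc-GFPhi libraries and 15.3, 9.56, 12.4 and 10.5 CPM in Hdc-GFPlo libraries. Adjusted p values of these 4 genes were 0.695 to 0.937 (edgeR). Racgap1, the partner of Kif23 in centralspindlin, had 161, 154, 179 and 148 CPM in Hdc-GFPhi libraries and 137, 113, 122 and 139 CPM in Hdc-GFPlo libraries, without overlap but not called (log2 fold change 0.33 ± 0.10, adjusted p = 0.216). Cdc20, the activator of the anaphase-promoting complex, averaged 121 ± 7.70 CPM in Hdc-GFPhi libraries and 96.1 ± 15.4 CPM in Hdc-GFPlo libraries (adjusted p = 0.286). Cenpe, the kinetochore kinesin whose symbol lies outside the naming rule, averaged 117 ± 17.9 CPM in Hdc-GFPhi libraries and 121 ± 12.3 CPM in Hdc-GFPlo libraries (adjusted p = 0.938). Of 25 listed mitosis genes that are not members, none was called, 23 lay above 0 and the median log2 fold change was 0.15. Of all genes tested, 0.947% were called and 49.9% lay above 0. As for the members, the signs of these 25 genes are not separate observations.

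The mitotic members varied more between libraries of a fraction than between the fractions, in their summed level. Hdc-GFPhi replicate 3 was above the gene's mean over 8 libraries for 13 of 13 members, and Hdc-GFPlo replicate 2 for 1 of 13. The summed level was 1018, 930, 1231 and 1086 CPM in Hdc-GFPhi libraries and 1018, 786, 933 and 1072 CPM in Hdc-GFPlo libraries, with overlapping groups and means of 1066 ± 127 CPM in Hdc-GFPhi libraries and 952 ± 125 CPM in Hdc-GFPlo libraries (SD). Without Hdc-GFPhi replicate 3 the median log2 fold change of the class was 0.10, with 9 of 13 members above 0. Kif21a lay 0.63 to 0.78 above its own mean (log2 CPM) in every Hdc-GFPhi library and 0.44 to 0.96 below it in every Hdc-GFPlo library. Set against the main spindle motor, there were 31.7, 39.6, 26.7 and 31.0 Kif21a reads per 1000 Kif11 reads in Hdc-GFPhi libraries, and 13.1, 13.5, 12.4 and 12.03 in Hdc-GFPlo libraries. Mitotic members made up 56.6 to 61.9% of all kinesin CPM in Hdc-GFPhi libraries and 51.2 to 57.4% in Hdc-GFPlo libraries.

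**Figure D3:**
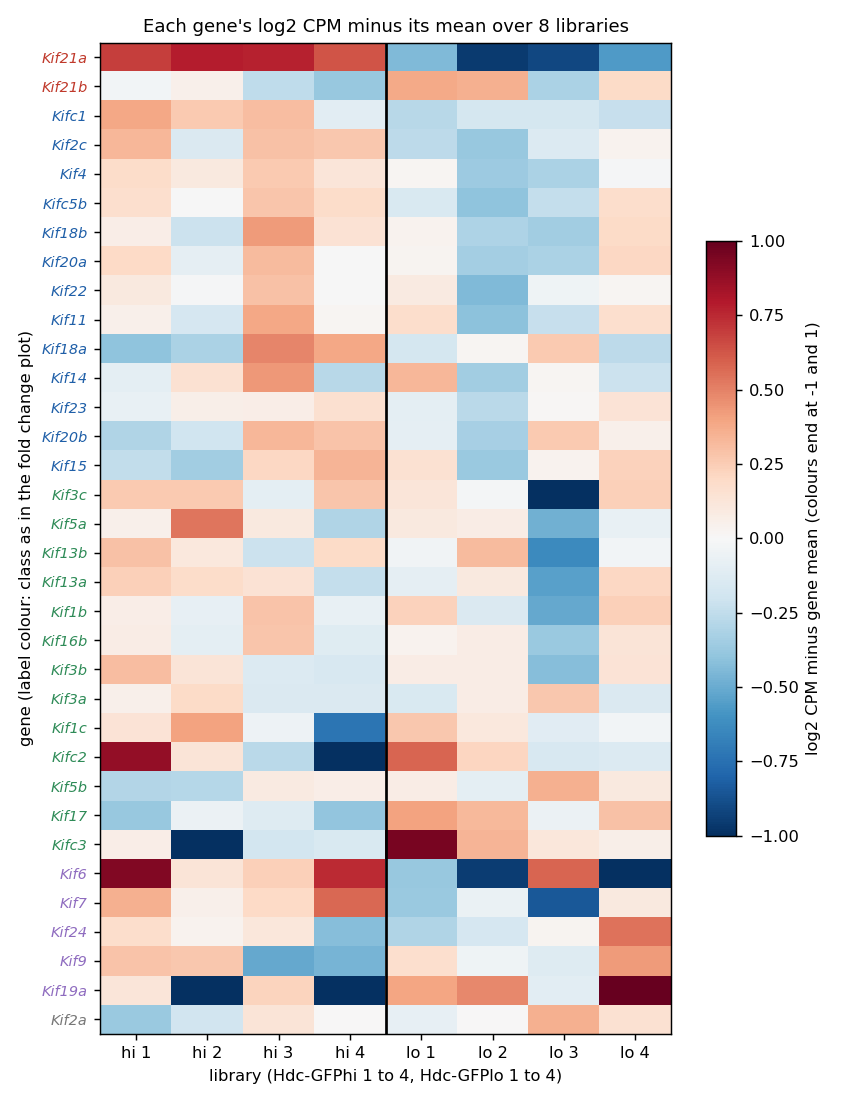
Log2 CPM of each tested kinesin gene in each library minus the gene's mean over the 8 libraries (colour, ending at -1 and 1), with Hdc-GFPhi libraries left of the black line and Hdc-GFPlo libraries right of it. The Kif21a row splits at the line, while all 13 mitotic rows are above their mean in Hdc-GFPhi replicate 3 and all but Kif18a are below it in Hdc-GFPlo replicate 2.

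The bases just upstream of the start are shown for Kif21a, the called member, for Kif11 as the main spindle motor, and for Kif4 and Kifc1, the mitotic members whose groups did not overlap. The sequences are the 250 bases before the start in RefSeq's GRCm38.p6 annotation, matched by symbol (37 windows of 33 members, 12 of them mitotic), while the counts were made on mm9. They run 5′ to 3′ on the gene's strand, in lower case, with capitals for CCAAT (the CCAAT box) and for TTTGAA or TTCGAA (forms of the cell cycle genes homology region), each searched on both strands, elements known from promoters of genes expressed in G2 and mitosis. The Kif21a window is chr15:91049952-91050201 on the minus strand, that of Kif11 chr19:37376132-37376381 on the plus strand, that of Kif4 chrX:100625815-100626064 on the plus strand and that of Kifc1 chr17:33890634-33890883 on the minus strand.
Kif21a: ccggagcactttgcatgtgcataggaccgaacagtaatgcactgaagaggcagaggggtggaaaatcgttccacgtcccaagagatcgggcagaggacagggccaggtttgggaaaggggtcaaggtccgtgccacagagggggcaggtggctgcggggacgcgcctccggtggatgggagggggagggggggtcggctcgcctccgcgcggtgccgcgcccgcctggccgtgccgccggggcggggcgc
Kif11: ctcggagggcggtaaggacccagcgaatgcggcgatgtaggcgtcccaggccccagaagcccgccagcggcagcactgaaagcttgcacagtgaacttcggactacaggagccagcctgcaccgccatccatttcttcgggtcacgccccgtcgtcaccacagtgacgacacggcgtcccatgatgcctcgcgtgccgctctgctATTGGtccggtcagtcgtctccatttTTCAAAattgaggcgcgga
Kif4: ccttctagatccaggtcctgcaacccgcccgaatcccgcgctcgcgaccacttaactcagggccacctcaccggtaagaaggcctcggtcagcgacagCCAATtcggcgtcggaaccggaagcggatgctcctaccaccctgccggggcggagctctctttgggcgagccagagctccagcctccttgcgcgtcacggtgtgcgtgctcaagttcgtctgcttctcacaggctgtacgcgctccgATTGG
Kifc1: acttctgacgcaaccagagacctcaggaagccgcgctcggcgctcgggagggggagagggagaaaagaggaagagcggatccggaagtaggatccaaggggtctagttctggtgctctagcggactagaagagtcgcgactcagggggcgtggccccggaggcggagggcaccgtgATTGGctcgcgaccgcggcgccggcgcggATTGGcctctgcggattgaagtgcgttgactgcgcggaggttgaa
The Kif21a window holds neither element in these letters. The Kif11 window holds 1 CCAAT box, which ends 41 bases before the start, and 1 homology region, which ends 14 bases before it, and the Kif4 and Kifc1 windows hold 2 CCAAT boxes each. No 2 matches overlap in these windows. Of the 12 mitotic windows, 8 hold a CCAAT box (66.7%) and 5 a homology region (41.7%), while of 25 windows of other kinesins 9 (36%) and 4 (16%) do. Over all 32851 windows of that length the shares are 33.8% and 17.1%. The windows are not all separate. Kif1a, Kif1b, Kif2a and Kif9 have more than 1 window each, and those of Kif1b overlap and share their CCAAT boxes. The windows of Kifc1 and Kifc5b are much alike in sequence. Whether each window is a promoter used in these cells was not tested. A match is a description of the letters and not evidence of binding.

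No transport kinesin was called, where 0.947% of all genes tested were called. Of 15 transport members, 13 were tested, 7 lay above 0 and 6 below, and the median log2 fold change was 0.07. Kif17, a homodimeric motor known from dendrites and cilia, had 23.2, 29.0, 27.6 and 22.9 CPM in Hdc-GFPhi libraries, against 39.9, 37.9, 29.0 and 37.0 CPM in Hdc-GFPlo libraries. Only Hdc-GFPhi replicate 2 and Hdc-GFPlo replicate 3 met, and the other libraries were separate. The log2 fold change of -0.48 ± 0.14 missed the threshold (95% interval -0.79 to -0.18, adjusted p = 0.169, edgeR), while DESeq2 (adjusted p = 0.0461) and limma voom (0.0334) called Kif17 lower. Kif5b, the widely expressed heavy chain of conventional kinesin, had 162, 163, 212 and 208 CPM in Hdc-GFPhi libraries and 209, 186, 254 and 213 CPM in Hdc-GFPlo libraries. The groups overlapped (log2 fold change -0.21, 95% interval -0.48 to 0.07). Kifc3, a minus-end motor of cell junctions, had 2.14, 0.840, 1.78 and 1.83 CPM in Hdc-GFPhi libraries and 4.03, 2.61, 2.21 and 2.13 CPM in Hdc-GFPlo libraries, a low level at which the groups touched. Kif3c, an alternative partner of Kif3a, had 19.8, 19.9, 15.4 and 20.1 CPM in Hdc-GFPhi libraries and 18.0, 16.3, 8.09 and 19.5 CPM in Hdc-GFPlo libraries, with Hdc-GFPlo replicate 3 lowest. The remaining 9 tested transport members, namely Kif1b, Kif1c, Kif3a, Kif3b, Kif5a, Kif13a, Kif13b, Kif16b and Kifc2, had log2 fold changes of -0.10 to 0.21, and all of their groups overlapped.

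Kinesins of cilia and centrioles were uneven in level, with Kif6 and Kif19a the low ones among those tested. Kif7, the Hedgehog pathway regulator at the cilium tip, had 16.4, 13.3, 14.7 and 19.2 CPM in Hdc-GFPhi libraries, against 9.87, 12.2, 7.09 and 13.7 CPM in Hdc-GFPlo libraries. The lowest Hdc-GFPhi and the highest Hdc-GFPlo library crossed (log2 fold change 0.57 ± 0.21, unadjusted p = 0.0204, adjusted p = 0.321, edgeR). Kif6, a motor of motile cilia, had 1.78, 0.980, 1.07 and 1.56 CPM in Hdc-GFPhi libraries and 0.664, 0.416, 1.39 and 0.304 CPM in Hdc-GFPlo libraries. Kif19a, which sets cilium length, had 0.535, 0.187, 0.579 and 0.178 CPM in Hdc-GFPhi libraries and 0.664, 0.713, 0.443 and 1.06 CPM in Hdc-GFPlo libraries. Both rested on few reads, with overlapping groups and intervals that span 0. Kif9, a motor of motile cilia, and Kif24, a depolymerase of centrioles, had log2 fold changes of -0.18 and -0.07. Kif2a, a depolymerase of spindle poles and nerve cell processes, was placed outside this class. It had 44.0, 49.7, 62.1 and 56.96 CPM in Hdc-GFPhi libraries and 53.7, 56.8, 72.5 and 62.9 CPM in Hdc-GFPlo libraries, also overlapping (log2 fold change -0.21, adjusted p = 0.678, edgeR). Exons of some named members overlap those of genes on the opposite strand in GENCODE M21, over 40.7% of exon length for Kif3c, 29.3% for Kif20a, 27.5% for Kifc3, 20.3% for Kif7, 19.2% for Kif2a and 15.1% for Kif4, and none does for Kif21a. The sources used here do not say whether strand was used in counting, and reads of these members and their neighbours cannot then be told apart.

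The members spanned a wide range of levels, given here as mean CPM per kb of exon. In Hdc-GFPhi cells Kif20a, Kif11 and Kif22 led at 30.6, 29.9 and 27.8 CPM per kb, followed by Kif5b at 23.4. In Hdc-GFPlo cells Kif11, Kif5b and Kif20a led at 27.2, 26.99 and 26.6 CPM per kb, with Kif22 at 24.6. In each fraction the first 3 genes differed by less than the SD of Kif20a between libraries. Kif21a ranked 28th of 34 in Hdc-GFPhi at 1.09 CPM per kb and 31st of 34 in Hdc-GFPlo at 0.397 CPM per kb, close to Kif1c at 0.373. Mitotic members ranged from Kifc5b at 1.03 to Kif20a at 30.6 CPM per kb in Hdc-GFPhi, with Kifc5b alone below Kif21a in that fraction.

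**Figure D4:**
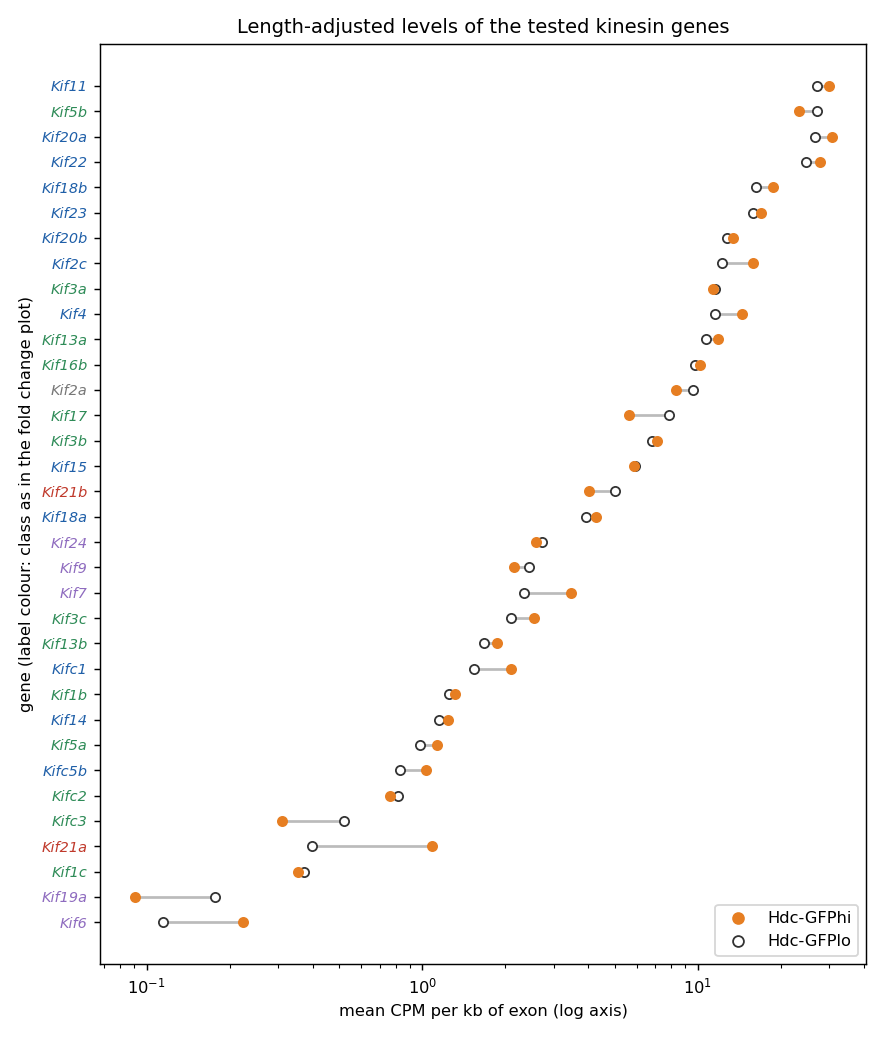
Mean CPM per kb of exon (log axis) of the 34 tested kinesin genes in Hdc-GFPhi (orange) and Hdc-GFPlo (open circles), ordered by the Hdc-GFPlo level. Kif21a sits near the low end, at 1.09 in Hdc-GFPhi and 0.397 in Hdc-GFPlo.

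The 8 members that were not tested were at or near 0. Kif1a, Kif2b, Kif12, Kif26a and the pseudogene Kif4-ps had no count. Kif27, a relative of Kif7 known from motile cilia, had 2, 0, 7 and 17 counts in Hdc-GFPhi libraries and 0 in every Hdc-GFPlo library. Against a floor of 3 counts over the Hdc-GFPlo group, the Hdc-GFPhi level was 7.54-fold higher. Of the 26 counts, 17 came from Hdc-GFPhi replicate 4, and without it the ratio was 3.49-fold. Neither ratio is a lower limit, because the spread of the Hdc-GFPhi counts, from 0 to 17, is not allowed for. With no filter on low counts Kif27 was not called (adjusted p = 0.254, edgeR). Kif5c, a neuronal heavy chain of conventional kinesin, had 9, 16, 10 and 0 counts in Hdc-GFPhi and 41, 1, 4 and 1 in Hdc-GFPlo, with most of the Hdc-GFPlo counts in replicate 1. Kif26b, a motor-like protein of kidney development, had 0, 0, 3 and 0 counts in Hdc-GFPhi and 1, 5, 2 and 0 in Hdc-GFPlo.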

How the data were processed

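The authors deposited raw read counts per gene symbol for 8 libraries, made with the build mm9. Tools named in the submitters' processing notes are HTSeq 0.6.1, TopHat2 2.04, Bowtie2 and bcl2fastq 1.8.4. Annotation, strand setting and the handling of multiply mapped reads are not given in these sources. Per the labels' protocols, cDNA was amplified (SMARTer) and libraries built with Nextera XT, with no molecular identifiers named, so copies of a molecule are counted separately. Groups and replicate numbers came from titles, and 1 Hdc-GFPhi library whose cell type label reads GFP+ was kept in its titled group. No 2 libraries of a group agreed within sampling noise (chi-square per degree of freedom at least 13.3). Hdc-GFPlo replicate 3 stood apart, at 49.8 to 55.4 against the other Hdc-GFPlo libraries, which were at 13.3 to 18.2 among themselves. Pairs of Hdc-GFPhi libraries were at 18.5 to 38.2.

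Genes were kept with filterByExpr (13300 of 23284), scaled by TMM and tested with edgeR 4.0.16 (glmQLFit robust, glmQLFTest; R 4.3.3), Hdc-GFPhi over Hdc-GFPlo, with Benjamini-Hochberg adjustment over all tested genes. A gene is called, or said to have risen or fallen, at an adjusted p below 0.05. CPM values are TMM-scaled, and log2 CPM for single libraries had a prior count of 2. Biological variation, as a coefficient, came to 19.9%. Exon lengths are unions over GENCODE M21 transcripts, matched by symbol and used only for levels per kb. The procedure was tested on simulated data.

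The members and lists were chosen with earlier results of these data known. Named members are the called gene, the tested mitotic members, Kif21b and the 8 other tested members with the smallest p, and named partners are the 2 with the smallest p of each list plus Kank1 and Cenpe. Kank2 and other genes were named after their values were seen. Lists of LSK, erythroid, megakaryocyte, neutrophil, B cell, T and NK cell, mast cell and basophil, endothelial and stromal, and stem cell markers were also counted. Of T and NK cell markers 3 were tested and 1, Lck, was called lower, the result of 1 LSK marker is not reported here and none of the others was called, and none of the 6 erythroid, 9 neutrophil, 4 mast cell and basophil and 6 endothelial and stromal markers tested was called. Alternatives were library totals alone, upper-quartile or DESeq2 size factors, 2 other filters, DESeq2 1.42.0, limma 3.58.1 voom, no robust estimation, a replicate block, a split of replicates as a covariate each library left out in turn, and Hdc-GFPhi replicate 4 and Hdc-GFPlo replicate 3 left out together.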

Additional observations from a re-analysis of the deposited data

Results flagged for a closer look

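Among 68 sets of 4 values (34 tested kinesins in 2 groups), 3 had 1 library far from the others, where chance flags about 1 in 20. Kif2c was at 54.5 CPM in Hdc-GFPhi replicate 2, against 72.5 to 75.7 CPM in the other Hdc-GFPhi libraries. Kif3c was at 15.4 CPM in Hdc-GFPhi replicate 3, against 19.8 to 20.1 CPM in the others of that group. Kif3b, a motor subunit of heterotrimeric kinesin, was at 28.8 CPM in Hdc-GFPlo replicate 3, against 40.8 to 42.8 CPM in the other Hdc-GFPlo libraries.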

How the results depend on the processing

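Kif21a was called under all 19 alternatives, with a log2 fold change of 1.37 to 1.55 and an adjusted p of up to 0.0383 (without Hdc-GFPhi replicate 3). Kinesins called numbered 2 with DESeq2 and 2 with voom, Kif17 being the addition, and 1 in every other alternative and in each fit with 1 library left out. Genes called overall numbered 126, but 404 with DESeq2, 278 with voom, 224 with the replicate block, 275 with a covariate that splits replicates 1 and 2 from 3 and 4, and 52 (without Hdc-GFPlo replicate 1) to 146 with 1 library left out, 68 without Hdc-GFPhi replicate 3. No mitotic kinesin was called under any alternative, and the class median stayed between 0.10 and 0.24. The median of the other kinesins was -0.03 and ranged from -0.08 to 0.12. With 1 library left out, log2 fold changes that changed sign ranged from -0.137 to 0.0892 for Kif15, -0.0272 to 0.25 for Kif14, -0.0372 to 0.25 for Kif18a, -0.0320 to 0.19 for Kif20b and -0.16 to 0.00653 for Cenpe, and Kif15 was at 0.0108 with no composition factor. The cause was not tested. Replicate numbers are shared by title only: same-numbered libraries correlated at 0.0755 to 0.347 in their deviations across genes, and not every library correlated best with its own number. With the replicate block, Kif21a kept its call (log2 fold change 1.46, adjusted p = 0.0144). Kif6 had 120 counts over the Hdc-GFPhi and 53 over the Hdc-GFPlo libraries, and Kif19a 33 over the Hdc-GFPhi and 56 over the Hdc-GFPlo libraries. What limits their precision was not tested.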
